A study of Rattus norvegicus with 6 samples.

Results

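The peaks bound by the 1804 antibody were compared between 2 stable lines of PC12 cells, a rat line from an adrenal pheochromocytoma: one carrying the empty pCDNA3 vector and one expressing human α1ACT, which the labels title Q11. Every peak of both 1804 lists was taken, 162002 of the 162327 regions in the 4 peak lists of the series, with 272 from the empty-vector cells and 161730 from the α1ACT cells. Each peak is an interval of 56 bp on the rn5 rat genome with a signal value from the authors. The cells were at passages 18 to 20 and were crosslinked with 1% formaldehyde for 10 min in both lines. The M2 antibody, which recognises the FLAG tag, gave 244 peaks in the empty-vector cells and 81 in the α1ACT cells, and these lists serve here only to look at the same sites with a different antibody. The labels do not say what the 1804 antibody recognises or whether a line is a clone or a pool, and the series' design text speaks of tissue where the sample labels name PC12 cells. There is 1 library per antibody and line, so nothing was tested between the lines, and the 95% exact (Clopper-Pearson) intervals below cover the counting of peaks only. Read depth is unknown for these lists.

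α1ACT is a transcription factor translated from within the messenger RNA of CACNA1A, the gene of the pore-forming subunit of the P/Q-type calcium channel, and it carries the polyglutamine tract that is expanded in spinocerebellar ataxia type 6. Chromatin immunoprecipitation pulls down DNA crosslinked to the antibody's target, and a peak is a place where the sequenced fragments pile up. PC12 cells make catecholamines like the adrenal chromaffin cell and grow neurites when nerve growth factor activates the MAP kinase cascade.

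A site in both lists (an overlap of 1 bp or more) is called shared, an empty-vector peak with no overlapping α1ACT peak is called lost, and an α1ACT peak with no overlapping empty-vector peak is called gained. Gained peaks at gene starts are where the lists meet known genes, and 6 such starts are shown first, chosen after their values were seen. Each sequence is the RefSeq window of GRCr8, 250 bases before to 50 bases after the transcription start site (TSS), on the gene's own strand. Jund (chr16:18769722-18770021, minus strand), an AP-1 subunit, and Slc7a8 (chr15:32212666-32212965, minus strand), a neutral amino acid transporter, are among the 20 gene starts with the highest gained signal. Dusp1 (chr10:17184603-17184902, plus strand) is an immediate early phosphatase that switches off MAP kinases. Xbp1 (chr14:84604373-84604672, plus strand) is a transcription factor of the unfolded protein response. Nras (chr2:193271220-193271519, plus strand) is a Ras GTPase, and Th (chr1:207508169-207508468, minus strand) is tyrosine hydroxylase, the rate-limiting enzyme of catecholamine synthesis. Capitals mark matches on either strand to the motifs searched, so that a GC box GGGCGG also appears as CCGCCC and a CCAAT box as ATTGG.
Jund: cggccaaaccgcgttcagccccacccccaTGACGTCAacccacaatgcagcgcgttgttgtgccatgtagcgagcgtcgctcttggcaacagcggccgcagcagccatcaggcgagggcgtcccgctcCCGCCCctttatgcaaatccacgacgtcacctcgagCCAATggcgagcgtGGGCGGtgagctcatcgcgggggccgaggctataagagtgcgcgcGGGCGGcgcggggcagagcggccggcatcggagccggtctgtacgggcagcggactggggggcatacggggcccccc
Slc7a8: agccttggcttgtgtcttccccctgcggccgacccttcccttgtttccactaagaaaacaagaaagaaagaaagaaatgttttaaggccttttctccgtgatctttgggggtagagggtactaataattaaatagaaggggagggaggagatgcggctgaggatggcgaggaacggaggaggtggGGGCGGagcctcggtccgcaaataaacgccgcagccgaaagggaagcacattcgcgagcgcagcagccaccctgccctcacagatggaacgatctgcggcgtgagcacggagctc
Dusp1: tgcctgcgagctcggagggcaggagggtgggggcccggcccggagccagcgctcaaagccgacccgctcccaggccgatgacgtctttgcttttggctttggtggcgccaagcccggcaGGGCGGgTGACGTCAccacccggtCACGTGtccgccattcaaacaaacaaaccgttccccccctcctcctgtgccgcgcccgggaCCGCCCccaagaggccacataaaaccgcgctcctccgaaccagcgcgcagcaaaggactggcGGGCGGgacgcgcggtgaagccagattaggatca
Xbp1: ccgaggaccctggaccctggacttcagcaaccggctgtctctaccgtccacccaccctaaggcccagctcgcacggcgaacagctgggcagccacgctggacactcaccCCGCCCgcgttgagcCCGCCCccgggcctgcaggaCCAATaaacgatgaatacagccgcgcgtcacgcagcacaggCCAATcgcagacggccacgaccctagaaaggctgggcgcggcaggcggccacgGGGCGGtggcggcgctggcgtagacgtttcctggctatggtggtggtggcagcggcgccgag
Nras: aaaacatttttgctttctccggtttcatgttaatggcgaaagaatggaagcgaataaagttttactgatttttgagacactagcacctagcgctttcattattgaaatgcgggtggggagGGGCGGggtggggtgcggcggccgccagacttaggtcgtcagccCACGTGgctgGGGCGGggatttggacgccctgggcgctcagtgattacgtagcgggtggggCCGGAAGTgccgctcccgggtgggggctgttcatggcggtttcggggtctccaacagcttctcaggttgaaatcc
Th: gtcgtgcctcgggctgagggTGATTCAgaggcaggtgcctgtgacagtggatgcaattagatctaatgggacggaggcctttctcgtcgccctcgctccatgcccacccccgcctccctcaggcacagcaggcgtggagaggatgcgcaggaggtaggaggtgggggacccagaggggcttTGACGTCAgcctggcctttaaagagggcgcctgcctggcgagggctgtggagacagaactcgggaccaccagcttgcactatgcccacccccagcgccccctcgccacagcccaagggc

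Of the 272 empty-vector peaks, 179 were shared (65.8%, interval 59.8 to 71.4) and 93 were lost (34.2%, 28.6 to 40.2). The shared sites made up 0.111% of the α1ACT list, and the other 161551 peaks (99.9%) were gained. In the empty-vector list, the shared peaks had signals from 14.1 to 528 with a median of 60.0, and the lost peaks from 14.0 to 788 with a median of 27.5. Lost peaks therefore lay lower on the whole, yet they included the peaks of rank 1 and rank 2. In the α1ACT list, the shared sites had signals from 2.55 to 739 with a median of 73.7, and the gained peaks from 2.00 to 899 with a median of 3.02, 99% of them below 9.47. How signal is scaled between the lists is not given in the sources used here, so values from both lists are set side by side without a ratio, and ranks are read within a list.

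Empty-vector peaks of high rank were found again in the α1ACT list more often than those of low rank, although the first 2 were not. The share of empty-vector peaks found again was 88.0% (68.8 to 97.5) for ranks 1 to 25 and again for ranks 26 to 50. It was 70.0% (55.4 to 82.1) for ranks 51 to 100 and for ranks 101 to 150, 62.0% (47.2 to 75.3) for ranks 151 to 200 and 47.2% (35.3 to 59.3) for ranks 201 to 272. Across the 179 shared sites, the signals of the 2 lists had a Spearman's rho of 0.92, and within the 44 sites from the upper 50 empty-vector ranks rho was 0.89. In the 135 shared sites of lower rank it was 0.83. These are descriptions over sites that come from the same 2 libraries. Of the 179 shared sites, 94 held an α1ACT rank of 100 or better, 154 one of 272 or better and 12 one beyond 1000. The positions were close too: both lists gave the same start at 41 shared sites, 151 starts (84.4%) lay within 5 bp of each other and the largest shift was 45 bp.

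**Figure D1:**
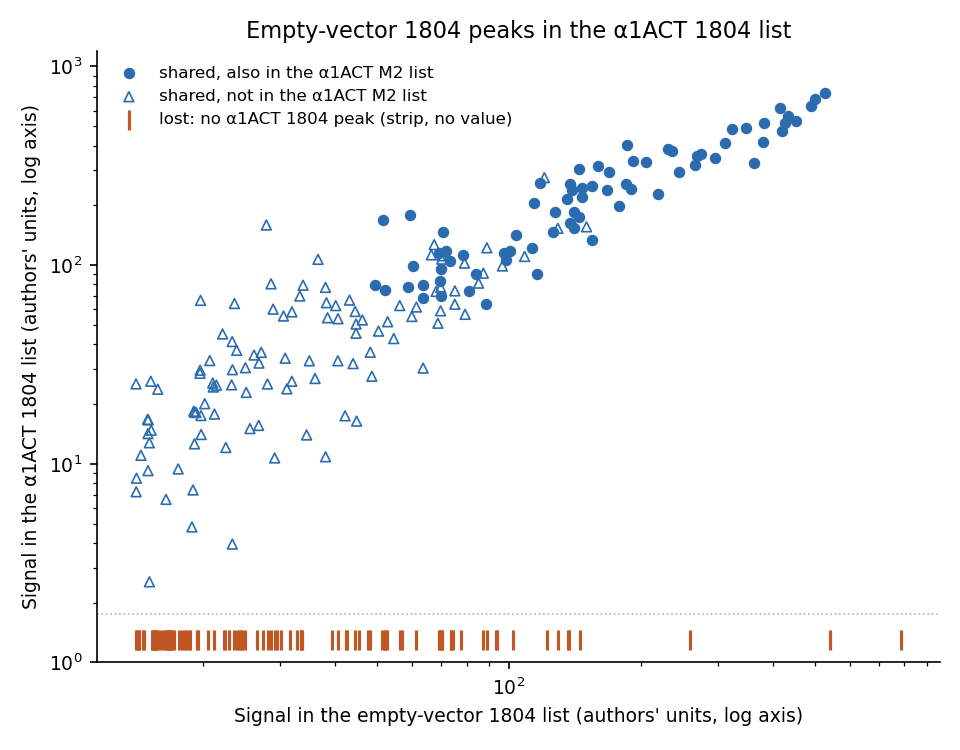
Signal of each empty-vector 1804 peak (x axis, authors' units, log scale) against the signal of the overlapping α1ACT 1804 peak (y axis, authors' units, log scale), with the 93 lost peaks as ticks in a strip at the bottom that has no y value. Filled circles are the 72 shared sites that also overlap an α1ACT M2 peak; they fill the upper end, while lost peaks are spread along the whole x axis up to 788.

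The 10 highest shared sites, by empty-vector rank, lay in or near genes of several kinds. The first, chr9:45204-45259 inside Efhb, a gene of an EF-hand protein, had a signal of 528 (rank 3) in the empty-vector list and 739 (rank 2) in the α1ACT list. Next came chr9:50600834-50600889, 48.1 kb from the Bivm start, with 500 (rank 4) and 689 (rank 3). The site chr6:68522156-68522211, 460 kb from Etv1, an ETS-family transcription factor gene, had 490 (rank 5) and 634 (rank 4). So the order of these 3 sites was the same in both lines. The site chr10:1802158-1802213, nearest to Rrn3, which encodes the RNA polymerase I initiation factor, had 434 (rank 7) and 562 (rank 6). A further one, chr17:90996774-90996829, lay 145 kb from Gad2, the gene of a glutamate decarboxylase, and had 416 (rank 10) and 617 (rank 5). The other 5 were nearest to Hspa4l, Tex33, Mei4, Thbs2 and Ces2c, with empty-vector signals from 381 to 452 and α1ACT signals from 417 to 531. All 10 overlapped a peak in both M2 lists.

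Some of the shared sites lay inside genes. A gene body of the authors' annotation table held 28 of the 179 shared peaks (15.6%, 10.7 to 21.8) and 2 of the 93 lost peaks (2.15%, 0.262 to 7.55), those in Cox11, a cytochrome c oxidase assembly gene, and Spetex-2H. Only bodies of genes to which that table assigns a gained peak could be counted. The same count was not made for gained peaks. By the table's own features, a different measure, later introns held 13.5% of its gained peaks, first introns 2.68% and exons 0.914%. Many lost peaks lie together, so they are not independent and the intervals are too narrow. Several of the shared peaks inside genes lay in genes with roles in neurons. The site in Cacna2d3, an auxiliary subunit gene of voltage-gated calcium channels, had 219 in the empty-vector list and 227 in the α1ACT list. The site in Ppp2r2b, a regulatory subunit gene of protein phosphatase 2A, had 185 and 256, and the one in Ppp3ca, the catalytic subunit gene of calcineurin, had 75.2 and 63.5. The site in Gria4, an AMPA-type glutamate receptor gene, had 40.7 and 53.7. A lower one in Dpysl5, which encodes a collapsin response mediator protein, had 25 and 30.4, and the one in Sema3e, a semaphorin gene, had 17.6 and 9.42. These genes were picked out after their values were seen.

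The 5 shared sites with the lowest place in the α1ACT list were weak in the empty-vector list as well. The site at Ado (chr20:24545238-24545293), an aminoethanethiol dioxygenase gene, was the only shared peak within 1000 bp of a listed TSS, at 30 bp. Its signal was 15.1 (rank 257) in the empty-vector list and 2.55 in the α1ACT list, above 25% of the peaks there. The site chr12:311754-311809, near N4bp2l1, had 23.3 (rank 197) and 3.94, above 75.1% of the α1ACT peaks. The site near Hspb8, a small heat shock protein gene, had 18.9 and 4.81, and those near Ppcdc and Chchd3 had 16.5 and 6.62, and 14.1 and 7.23.

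The lost peaks included the 2 highest of the empty-vector cells. The peak of rank 1, chr7:142709080-142709135, with a signal of 788, lay 30.3 kb from Zfp385a, a zinc finger gene, and the nearest α1ACT 1804 peak was 20.0 kb away. The peak of rank 2, chr2:208470940-208470995, with 542, lay 14.3 kb from Adar, an RNA-editing deaminase gene, and 22.6 kb from the nearest α1ACT peak. Then came chr13:38696183-38696238 with 258 (rank 21), whose nearest α1ACT peak was 97.4 kb away, the longest gap of all lost peaks. The other 7 of the 10 highest had signals from 93.7 to 145. Among them were a site near Wdr82, a subunit gene of a histone methyltransferase complex, and one 62.2 kb from Il12a, an interleukin subunit gene. All 10 overlapped an empty-vector M2 peak and none overlapped an α1ACT M2 peak.

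For most lost peaks no α1ACT peak was close by. The median gap from a lost peak to the nearest α1ACT 1804 peak was 18.5 kb: 46 of the 93 had a gap of 10001 to 50000 bp and 18 a longer one, while 7 had an α1ACT peak within 100 bp. At those 7 the class rests on the overlap rule. The smallest gap was 5 bp, at chr2:180005962-180006017, with an empty-vector signal of 15.3 and a neighbouring α1ACT signal of 25.3. At chr11:60846182-60846237, 49.1 kb from Qtrtd1, the gap was 36 bp, the empty-vector signal 77.6 (rank 81) and the neighbouring α1ACT signal 143 (rank 55). This was the only lost peak that overlapped an α1ACT M2 peak. On the other side of the rule, the smallest overlap of a shared site was 11 bp, at chr15:39885221-39885276.

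The M2 list of the α1ACT cells held many of the shared sites and 1 of the lost ones. In the empty-vector cells, 133 of 179 shared peaks (74.3%, 67.2 to 80.5) and 70 of 93 lost peaks (75.3%, 65.2 to 83.6) overlapped an M2 peak. In the α1ACT cells, 72 shared peaks (40.2%, 33.0 to 47.8) and 1 lost peak (1.08%, 0.0272 to 5.85) overlapped an M2 peak. Because lost peaks lay lower, the same counts were taken within ranks. Among empty-vector ranks 1 to 100, 77 of 79 shared peaks and 20 of 21 lost peaks were in the empty-vector M2 list, and 63 and 1 were in the α1ACT M2 list. Among ranks 101 to 272, 56 of 100 shared peaks and 50 of 72 lost peaks were in the empty-vector M2 list, and 9 and 0 were in the α1ACT M2 list. Within ranks 201 to 272, 7 of 34 shared peaks and 20 of 38 lost peaks were in the empty-vector M2 list, so there the lost peaks had the larger share. The M2 and 1804 libraries of a line come from the same cells, so the M2 lists add an antibody and not another pair of lines.

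Lost peaks lay together in the genome. When empty-vector peaks within 500 kb of the next were joined, a distance chosen after seeing the data, 140 peaks stood alone, 16 were in pairs and 116 fell into 16 groups of 3 or more. Of the peaks standing alone 11 were lost (7.86%, 3.99 to 13.6), of those in pairs 4 (25%, 7.27 to 52.4) and of those in groups 78 (67.2%, 57.9 to 75.7), which is 83.9% of all lost peaks. The grouped peaks had a lower median signal, 30.9 against 60.1 for those alone. Within ranks 1 to 100, 4 of 63 peaks alone (6.35%) and 15 of 30 in groups (50.0%) were lost, and within ranks 101 to 272 it was 7 of 77 (9.09%) and 63 of 86 (73.3%). Between these ranks the share lost differed less among peaks alone than among those in groups. The trend by rank given above is over both kinds of peak. Peaks of a group share their surroundings and are not independent, so these intervals and those given above for shared and lost peaks are too narrow.

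**Figure D2:**
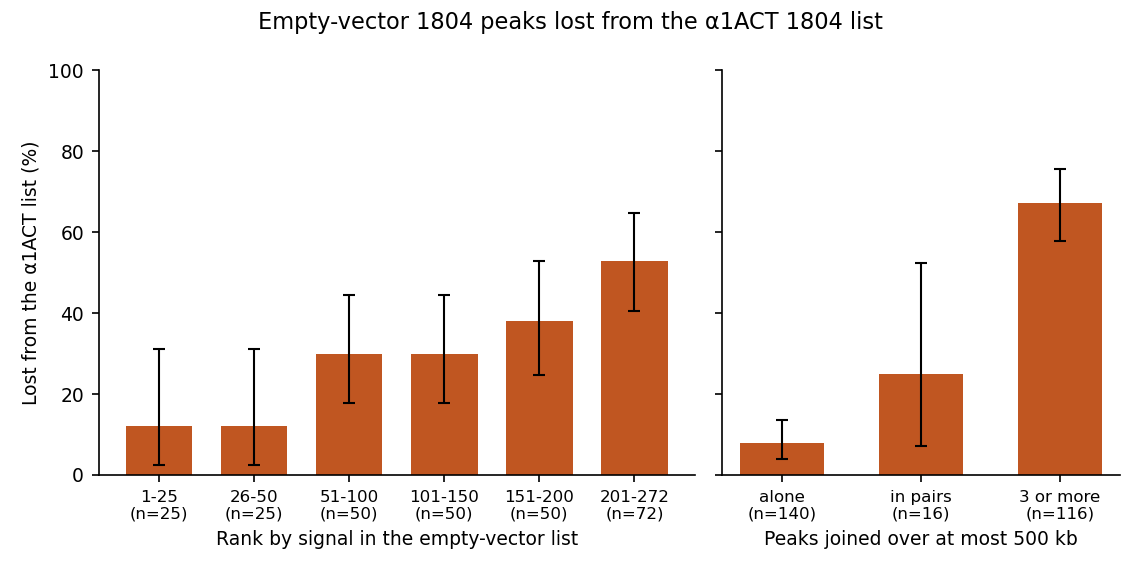
Share of empty-vector 1804 peaks lost from the α1ACT 1804 list (y axis, percent), by rank in the empty-vector list (left) and by whether a peak stood alone, in a pair or in a group of 3 or more joined over at most 500 kb (right); bars are shares, lines are exact 95% intervals for counting error only and n is the number of peaks. The share lost is lowest in the upper 50 ranks, where 6 of 50 were lost, and highest in ranks 201 to 272, where 38 of 72 were, and it is 7.86% of peaks alone against 67.2% of those in groups.

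In 5 groups every peak was lost. The largest of them, chr15:53739458-53961838, held 15 peaks with signals from 14.3 to 73.9, 12 of them in the empty-vector M2 list and none in the α1ACT M2 list. The α1ACT list has 3 peaks in that stretch, and the nearest gene, Adam28, which encodes a membrane metalloprotease, lies 197 kb away. The stretches chr17:46191686-46195653 (4 peaks, 4.0 kb) and chr6:149332617-149336057 (4 peaks, 3.4 kb), held no α1ACT 1804 peak, nor did chrX:98432686-98434031 (3 peaks, 1.3 kb). The last, chr13:95680439-95725217, held 3 lost peaks and 4 α1ACT peaks. At chr2:504313-978522, 11 of 12 peaks were lost, and the whole group spanned 115 α1ACT 1804 peaks. At chr17:58983372-59382584, 35.0 kb from the histone gene Hist1h4b, 6 of 7 were lost, and the group spanned 47 α1ACT peaks. These counts do not describe the surroundings of each lost peak. On chromosome 2, the lost peaks from 552728 to 557741 lay in 102115 bp without an α1ACT peak. Those from 976736 to 978522 lay in 22812 bp without one. On chromosome 17, the lost peaks from 59379267 to 59382584 lay in 68296 bp without one. The remaining lost peak there, at 59328107, had an α1ACT peak 153 bp away.

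Other groups kept their peaks in part. The group with the most peaks, chr1:187623775-188353885, 1645 kb from Rras2, held 25 with signals from 19.7 to 145. Of these, 8 were lost, 22 were in the empty-vector M2 list and 9 were in the α1ACT M2 list. At chr10:11194979-11533703, which spans Abcc1, Fopnl and the smooth muscle myosin gene Myh11, 4 of 5 were lost. At chr1:46993-540096, which spans the vomeronasal receptor genes Vom2r2 and Vom2r3, 1 of 4 was lost. Only chr9:120100121-120100811 lost none: its 3 peaks had 36.1, 34.5 and 29.2 in the empty-vector list and 26.9, 14.0 and 10.7 in the α1ACT list. By chromosome, 16 of 22 peaks were lost on chromosome 15 and 11 of 14 on chromosome 17, 9 of 53 on chromosome 1, and none on chromosomes 4, 5, 8, 16, 18, 19 and 20, which held from 1 to 8 peaks each.

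**Figure D3:**
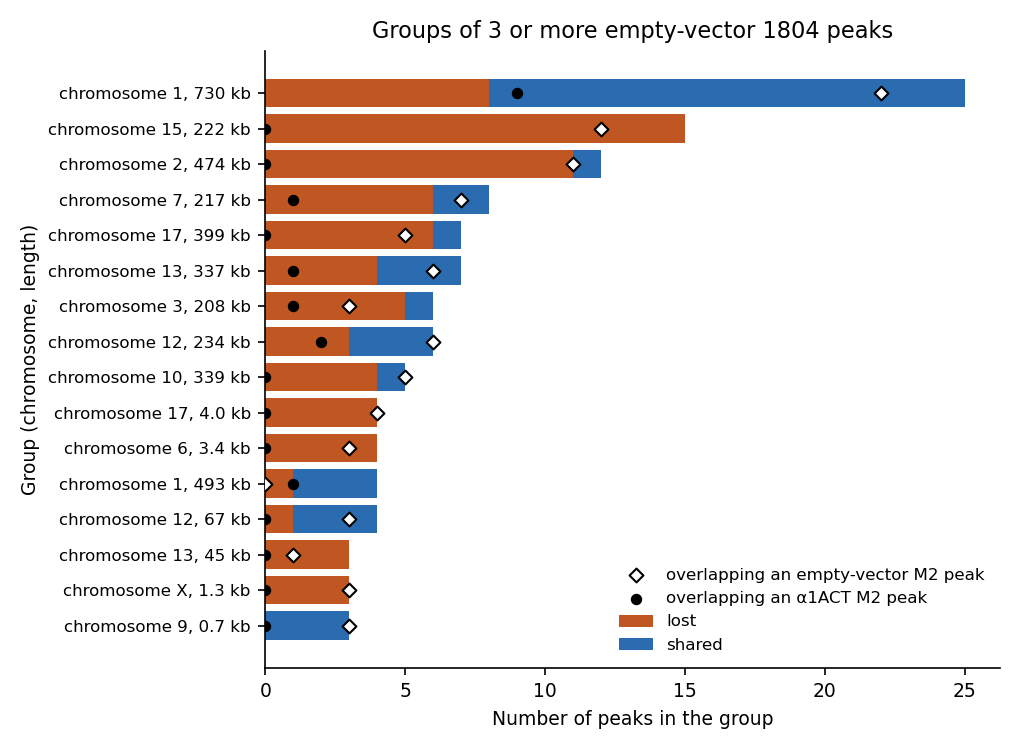
The 16 groups of 3 or more empty-vector 1804 peaks, named by chromosome and length in kb (y axis), with the number of lost and shared peaks as stacked bars (x axis) and the number that overlap an M2 peak of each line as symbols. In 5 groups the bar is all lost; the open diamonds lie near the bar ends in most groups, and the filled circles are at 0 in 10 groups.

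Gained peaks made up little of the top of the α1ACT list and nearly all of the rest. They were 1 of the first 50 peaks, 6 of the first 100, 52 of the first 200 (26.0%), 336 of the first 500 (67.2%) and 833 of the first 1000 (83.3%). Of all gained peaks, 326 had a signal of 14.0 or more, the lowest value in the empty-vector list, and 4 reached the shared sites' median of 73.7. The list's highest −log10 q-value, 3.89, was given to 176 of 179 shared sites (98.3%) and 11497 gained peaks (7.12%). The first was chr10:110277977-110278032 in intron 13 of 38 of Tbcd, a tubulin-folding cofactor gene, with 899, the only gained peak that overlapped an α1ACT M2 peak. The second, with 143, was the neighbour of the lost peak near Qtrtd1. The third, chr20:47783774-47783829, had 117 and lay 36.3 kb from Fig4, a phosphoinositide phosphatase gene, and the fourth, chr7:99746598-99746653, had 82.6 and lay 5.45 kb from the cytochrome P450 gene Cyp2b1. Both were in the empty-vector M2 list, as were 15 gained peaks in all, so at those sites only the 1804 antibody lacked an empty-vector peak. The remaining 6 of the first 10 on assembled chromosomes had signals from 43.4 to 66.9, the highest of them 63.8 kb from RragB, a Rag GTPase gene. The 1 gained peak on the mitochondrial genome, which is not counted among these 10, had 66.6.

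**Figure D4:**
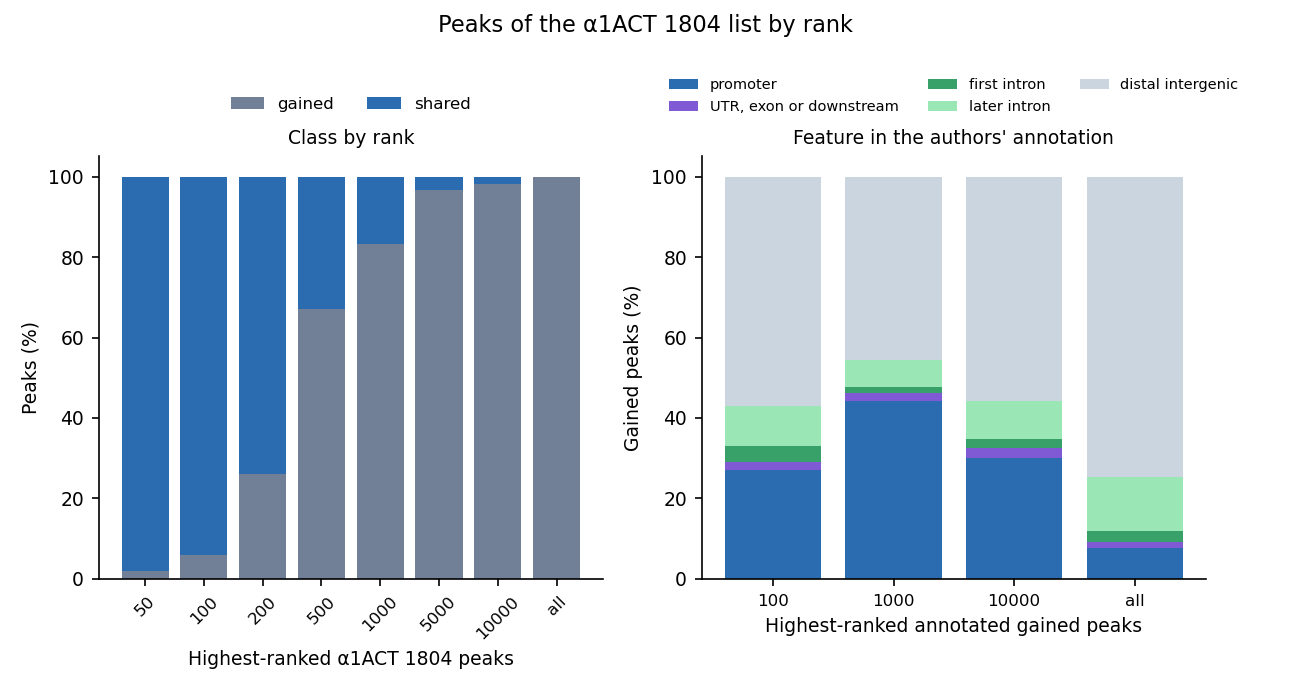
Left, share of gained and shared peaks (y axis, percent) among the highest-ranked α1ACT 1804 peaks; right, share of gained peaks (y axis, percent) by the feature in the authors' annotation, among the highest-ranked annotated gained peaks. Gained peaks go from 2.00% of the first 50 to 99.9% of all, and promoters are 44.3% of the upper 1000 annotated gained peaks and 7.65% of all.

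Gained peaks of high rank lay at promoters more often than the gained peaks as a whole. The authors' annotation table holds 159452 gained peaks, no shared one, and it leaves out 2099 gained ones. Promoter was its feature for 27.0% of the upper 100, 44.3% of the upper 1000, 30.0% of the upper 10000 and 7.65% of all, and distal intergenic for 57.0%, 45.5%, 55.7% and 74.6%. First introns held 2.68% of all and later introns 13.5%. Within 1000 bp of a listed TSS lay 9120 gained peaks (5.65%), 1 shared peak (at Ado) and 1 lost peak. The TSSs used are those of genes to which the authors' table assigns a gained peak, so gained peaks are nearer to them by construction. Shared and lost peaks had a median distance of 182 and 361 kb to them.

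Gained peaks also ran in rows. With peaks at most 1000 bp from the next joined, the 161551 made 102557 blocks, of which 75948 (74.1%) were single peaks, and 85603 peaks (53.0%) lay in a block of 2 or more. The longest held 32 peaks over 13640 bp at chr19:38940705-38954344. Rows of 28 and 26 peaks lay nearest to the chemoreceptor genes Vom1r21 (854 kb) and Olr1217 (111 kb). Inside Nlgn1, the gene of the synaptic adhesion protein neuroligin, a row of 17 peaks spanned 6684 bp with a highest signal of 25.8. A row inside Rttn, the gene of rotatin, a centriole protein, held 14 peaks with a highest signal of 16.0. Among the assembled chromosomes, outside stretches of over 1 Mb without any α1ACT peak, gained peaks had a density from 41.2 per Mb on chromosome 5 to 71.1 per Mb on chromosome 2. There were 14 such empty stretches, 141 Mb in all and up to 65.2 Mb on chromosome 4, and no peak of the other 3 lists lay in them. Whether reads can be placed in these stretches was not tested, so they are not shown to be unbound.

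At gene starts, the 20 genes with the highest gained peak within 1000 bp of the TSS had signals from 18.3 to 30.3, all above 99.8% of the α1ACT list. Places 11 to 20 went to genes of several kinds. Lnpep, an aminopeptidase gene, had 19.8 at −493 bp from the start, and Jund had 19.5 at 36 bp. Aldh3a2, a fatty aldehyde dehydrogenase gene, had 19.4. Degs1, of ceramide synthesis, and Vps36, of endosomal sorting, both had 19.1. Sympk, a scaffold gene of messenger RNA 3′-end processing, had 18.9, and Polr3e, an RNA polymerase III subunit gene, had 18.8. Dus1l, a dihydrouridine synthase gene, had 18.6 at 10 bp. Chrnb1, a nicotinic acetylcholine receptor subunit gene, and Rbbp5, a subunit gene of histone H3 lysine 4 methyltransferases, both had 18.3. In Jund the peak ran from 36 to 91 bases downstream of the start, past the end of the window printed above. In Slc7a8, with a signal of 22.8, it ran from 10 to 65.

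Among genes with reported ties to α1ACT, the start of Btg1, an antiproliferative gene, had 4 gained peaks within 1000 bp. The highest of them had 10.1 at 262 bp, and 59 gained peaks were assigned to the gene in all. Grn, which encodes progranulin, had 1 with 4.02 at 115 bp. Atp2b2, a plasma membrane calcium pump gene, and Cacna1a, the host gene itself, had none near the start: their nearest assigned peaks were at −40371 bp and 15521 bp from the start. All 4 of these genes had an assigned gained peak at some distance, as did 74.7% of protein-coding genes. For comparison, 6094 of the 18533 protein-coding genes of RefSeq (32.9%) had a gained peak within 1000 bp of their start, with a median best signal of 4.94. An upper-10% gained peak, of 5.28 or more, was near the start in 15.0% of genes.

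Of the 34 immediate early genes listed, which answer growth factors and depolarisation within minutes, 26 had a gained peak at the start (76.5%, 58.8 to 89.3, against 32.9% of all genes), 12 of them in the upper 10%. Jund had 19.5, Dusp1 15.6 and Fosl2, a Fos-family gene, 11.7. Fos, Jun, Egr1, Arc and Atf3 were among the members with a peak, and Junb, Fosl1, Myc, Nr4a2, Nr4a3, Klf6, Homer1 and Npas4 were the 8 without. Of the 32 genes of nerve growth factor and MAP kinase signalling, 20 had one (62.5%, 43.7 to 78.9), 9 in the upper 10%. Nras had 12.4 and the adaptor gene Grb2 7.72. The low-affinity receptor gene Ngfr had none, its nearest being at −3399 bp, and neither had Braf, Mapk3 or Akt1. Of the 23 genes of neurite outgrowth and the neuronal cytoskeleton, 17 had one (73.9%, 51.6 to 89.8), 8 in the upper 10%. Tuba1a, an α-tubulin gene, had 13.1, the neurofilament-family gene Ina 11.3 and Crmp1, of growth cone signalling, 7.55. The authors' annotation places that Tuba1a start on chromosome X, and whether it is the gene's own locus was not checked. Gap43, Map2, Dcx, Prph, Marcks and Rhoa had none.

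Genes of the chromaffin cell itself were nearer to the share over all genes, with 8 of 21 (38.1%, 18.1 to 61.6), 5 in the upper 10%. Phox2a, a transcription factor gene of noradrenergic cells, had 9.74, the granule protein gene Chga 9.26 and Th 8.79 at 29 bp. Dbh, which encodes the enzyme that turns dopamine into noradrenaline, had no gained peak assigned to it at any distance. Of the 21 genes of the unfolded protein and integrated stress responses, 11 had one (52.4%, 29.8 to 74.3), 4 in the upper 10%, with 15.1 at Xbp1, 15.0 at Atf4 and 12.9 at Trib3. Ddit3 and Atf6 had none. The 19 housekeeping reference genes gave 12 (63.2%, 38.4 to 83.7), and 11 of those were in the upper 10%. Gapdh had 13.6 and Actb 10.7. The shares of the immediate early, neurite and signalling lists all lie within the housekeeping list's interval.

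Markers of other cell types were counted in the same way. Of 22 Purkinje cell markers, 3 had a gained peak at the start (13.6%, 2.91 to 34.9), among them Slc1a6 with 4.22 and Lhx1 with 2.80. Calb1 and Pcp2 were among those without. Of 15 immune cell markers, 1 had one, Tyrobp with 2.11 (6.67%, 0.169 to 31.9). Of 14 liver markers, 2 had one, Fgg with 3.36 and Apoc3 with 3.18 (14.3%, 1.78 to 42.8), and of 13 muscle and keratin markers none (0 to 24.7). Of 12 glial markers, 5 had one (41.7%, 15.2 to 72.3), with 8.33 at the myelin gene Mbp and 4.49 at both Cnp and Slc1a3. Within 3000 bp, where the share over all genes was 39.6%, 3 of 13 muscle and keratin markers and 4 of 14 liver markers had one. The lists were described by their counts only, and no difference between them was tested.

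**Figure D5:**
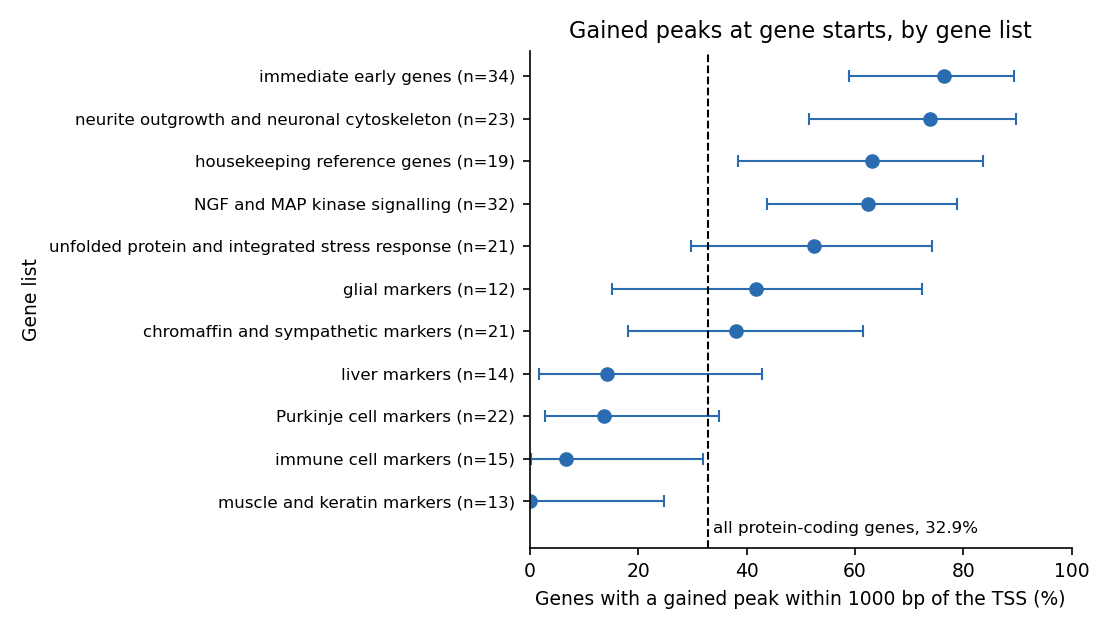
Share of each gene list with a gained peak within 1000 bp of the TSS (x axis, percent); points are shares, lines exact 95% intervals for counting error only, n is the number of genes and the dashed line is the 32.9% of all protein-coding genes. Immediate early genes (76.5%) and neurite genes (73.9%) lie highest, muscle and keratin markers at 0.

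Letters at the gene starts could be compared over 15159 RefSeq promoters of GRCr8, of which 2378 had a gained peak overlapping the window from 250 bases before to 50 after the start. The peaks are placed by the authors' rn5 start and the letters come from the GRCr8 start, which may differ. Promoters with a gained peak had a median GC content of 65.3% and a median of 26 CpG dinucleotides, and those without had 56.3% and 13. The GC box GGGCGG, bound by Sp-family factors, was in 76.8% of promoters with a peak, 44.8% of those without and 49.8% of all. The TATA box TATAAA was in 4.46%, 13.1% and 11.8%, and TTATAA, which shares most of its letters with it, in 1.64%, 5.48% and 4.87%. CCAAT was in 34.4%, 38.9% and 38.2%. The cAMP response element TGACGTCA was in 4.04%, 2.28% and 2.55%, and the AP-1 site TGANTCA in 3.66%, 6.78% and 6.29%. The E-box CACGTG was in 10.4%, 7.52% and 7.98%, and the ETS site CCGGAAGT in 8.62%, 5.34% and 5.86%. The GC box, E-box and ETS site, which hold more G and C than A and T, were thus more frequent with a peak. So was the cAMP response element, which holds as many of each. The motifs with more A and T were less frequent, alongside the difference in GC content. Each motif was searched on both strands, and a match describes letters only.

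In the windows printed above, Jund has GC boxes at −122, −72 and −27 from the start, a CCAAT box at −86 and a cAMP response element at −221. Dusp1 has GC boxes at −131, −46 and 16, a cAMP response element at −124 and an E-box at −107, and its peak, with a signal of 15.6, ran from −22 to 33. Xbp1 has GC boxes at −141, −126 and −12 and CCAAT boxes at −106 and −65, and its peak ran from −19 to 36. Nras has GC boxes at −130 and −76, an E-box at −86 and an ETS site at −25, and its peak ran from −134 to −79. Th has a cAMP response element at −69 and an AP-1 site at −230, with its peak from 29 to 84, and Slc7a8 has a GC box at −65. A position is that of the first base of the match, with the start counted as 0. If the rn5 and GRCr8 starts coincide, which was not checked, the peak covered the GC box at −130 and the E-box in Nras. On the same condition it covered the GC box at −12 in Xbp1 and the GC box at 16 in Dusp1.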

How the data were processed

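Peak lists of 2 PC12 lines were compared, each from 1 library per antibody, and the samples were grouped by line and antibody from their labels. The deposited peak lists give a signal for each peak and a −log10 q-value, both computed by the authors. A scale shared by the lists, and the settings and controls behind the peaks, are not given in the sources used. The deposited annotation table gives, per the file headers, each peak's feature and its distance in bp to a TSS. The submitters' processing notes name FastQC 0.11.2, BWA 0.7.5a, DiffBind, ChIPseeker, HOMER and the rn5 build, without saying what each was used for. Input libraries were not used here. No column was left unmapped.

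Overlaps were computed with pandas 2.3.3 and numpy 2.4.6, intervals with scipy 1.17.1 and figures with matplotlib 3.10.9, and the overlap code was tested on simulated data. Peaks were ranked by signal within each list. With 1 library a group no test between lines can be made, so no p-value is given. Named are 4 reported genes, the 10 highest shared, lost and gained sites on assembled chromosomes, the 5 shared sites placed lowest in the α1ACT list, the 20 gene starts with the highest gained signal, the 3 highest members of each list, sites near a TSS and sites nearest the overlap limit; members that lack a peak, neurally expressed genes with shared sites and rows of gained peaks were named after their values were seen. The members and gene lists were chosen with earlier results of these data known. All symbols of the 12 gene lists matched RefSeq, 14269 of 14390 genes of the authors' table did, and 177 of 249 named symbols had a promoter sequence. No genome of the rn5 build was used here, so sequences under peaks are not printed. Some genes of these lists are not reported here.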

Additional observations from a re-analysis of the deposited data

How the results depend on the processing

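Of 50 recomputed values on shared, lost and gained counts, distances, ranks and grouping, 36 moved little. For a count this means staying within a set fold limit, and for a share staying within the main interval. Many of these values restate each other, as the shared and lost counts do with their share. Some settings could change little: assembled chromosomes alone again gave 179 shared and 93 lost. The number that moved little is therefore not a measure of stability. Joining peaks of a list within 500 bp left 61 lost regions and 73.4% of 229 shared. In the upper 50% of each list by signal, 105 empty-vector peaks were shared (77.2%), 31 were lost and 80774 α1ACT peaks were gained. With the α1ACT list shortened to 272 peaks, 118 were gained and 56.6% of the empty-vector peaks were shared. At a −log10 q of 2 or more in both lists, 69 of 83 were shared (83.1%) and 14 were lost. Those counts fall because fewer peaks enter. Gained peaks near a TSS were 4.55% within 500 bp and 7.47% within 3000 bp. When an α1ACT peak within 1000 bp counted as shared, an alternative chosen after seeing the data, 3.57% of the peaks standing alone and 62.1% of those in groups were lost. With peaks joined over at most 100 kb or 1 Mb, also chosen after seeing the data, the grouped peaks were lost in 74.0% and 66.7%. For the gene lists, 7 of 24 recomputed shares left their main interval, all with the upper 10% of gained peaks, a setting that cannot raise a share. The intervals of such short lists are wide. The muscle and keratin share, 0 within 1000 bp and 23.1% within 3000 bp, counted as not moved. No paired analysis was possible because each group holds 1 library. Read depth is unknown, so a peak missing from a list is not shown to be missing from the cells.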
